A study of Saccharomyces cerevisiae with 9 samples.

Results

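Ribosome biogenesis genes of budding yeast named NOP (nucleolar protein), UTP (U3 protein) or RRP (ribosomal RNA processing) followed by a number were examined across freezing and thawing. All 53 S. cerevisiae genes with such a symbol in the RefSeq table were represented, by 1 probe set each, among 5396 genes tested. They comprised 17 NOP, 18 UTP and 18 RRP genes, and all 53 exceeded the background threshold (a log2 signal of 2.21), the lowest single value being 5.96. The cells were BY4741, a laboratory strain of Saccharomyces cerevisiae, taken in log phase from YPD medium, washed and suspended in distilled water. One group of 3 arrays held cells left unfrozen, another group of 3 held cells kept at -30 °C for 24 h, and the last group of 3 held cells kept at -30 °C for 48 h. The frozen cells were thawed at 30 °C in a water bath for 10 min. All groups share the strain, the growth and the water, and the 3 groups come from 1 strain only. The labels mention triplicates and also a pair of experiments. What the arrays of a group share is thus unclear, and a p-value here reflects array-to-array spread that can be technical in part. In RNA from a whole culture, less RNA in each cell and loss of RNA from some of the cells cannot be told apart.

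Ribosomes are assembled in the nucleolus, where RNA polymerase I transcribes a long precursor that holds the RNAs of both ribosomal subunits. Small nucleolar ribonucleoproteins (snoRNPs) modify the precursor, the UTP proteins join it in a large particle, the small-subunit processome, and exonucleases such as the RNA exosome trim it. In growing yeast these genes are known for being expressed together with each other and for falling together when cells are starved or stressed.

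As deposited, the median over budding yeast probe sets was 201 to 726 per array, and the frozen replicate 3 arrays, at 679 and 726, were the brightest. Values below are log2 signals after all 9 arrays had been brought to 1 common median. Between 97.4% and 98.7% of probe sets per array lay above the fission yeast probe sets that serve as background. Of the loci deleted in BY4741, URA3 had a mean log2 signal of 0.68 and MET17 of 2.04, both under the threshold, and LEU2 stood at 2.62, just above it. The median log2 signal of the 17 ribosomal RNA control probe sets was 5.45 to 7.02 on unfrozen arrays and 7.64 to 10.43 on frozen ones. This signal moves with freezing, and its part in the results below was not tested beyond a fit that takes it as a covariate.

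No NOP, UTP or RRP gene passed the threshold at either freezing time. At the shares called over all genes, a list of 53 genes holds few calls or none, so this count says little about these genes. After 24 h frozen, limma called 0 of the 53 genes at an adjusted p under 0.05, against a background of 1.00% of all genes tested, and 2 had an unadjusted p under 0.05 (3.77%, against 10.7% of all genes). After 48 h, 0 of 53 were called against a background of 2.91%, and 5 had an unadjusted p under 0.05 (9.43%, against 16.4%). The median difference from unfrozen was 0.06 at 24 h and -0.09 at 48 h on the log2 scale, beside -0.02 and -0.03 for all genes tested. At 24 h, differences ran from -0.53 to 0.50, with 33 of the 53 above 0. At 48 h they ran from -0.68 to 0.46, with 20 above 0. Leaving out 1 array, 48 h replicate 1, turned the 48 h median to 0.08, with 30 of the 53 above 0. The 2 comparisons share their unfrozen arrays. The sign of these medians also depends on the scaling: they were 0.36 and 0.34 in the values as deposited, beside 0.28 and 0.40 for all genes, and -0.26 and -0.42 with scaling on every probe set of the array, fission yeast included, beside -0.34 and -0.37 for all genes.

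The 95% intervals of these differences set what could have been missed. At 24 h the interval lay within a 2-fold change in either direction for 48 of 53 genes, or 90.6%, beside 71.2% of all genes tested. At 48 h this held for 43 of 53, or 81.1%, beside 67.1% of all genes. Within a 1.5-fold change it held for 22 of 53 genes at 24 h and 15 at 48 h, beside 1420 and 1222 of all 5396 genes tested. Standard errors ran from 0.14 for UTP8 to 0.53 for RRP36, with a median of 0.23. Changes within these intervals could be missed with 3 arrays per group. For the genes with the widest intervals they include changes above 2-fold. The intervals are not adjusted for the number of genes.

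**Figure D1:**
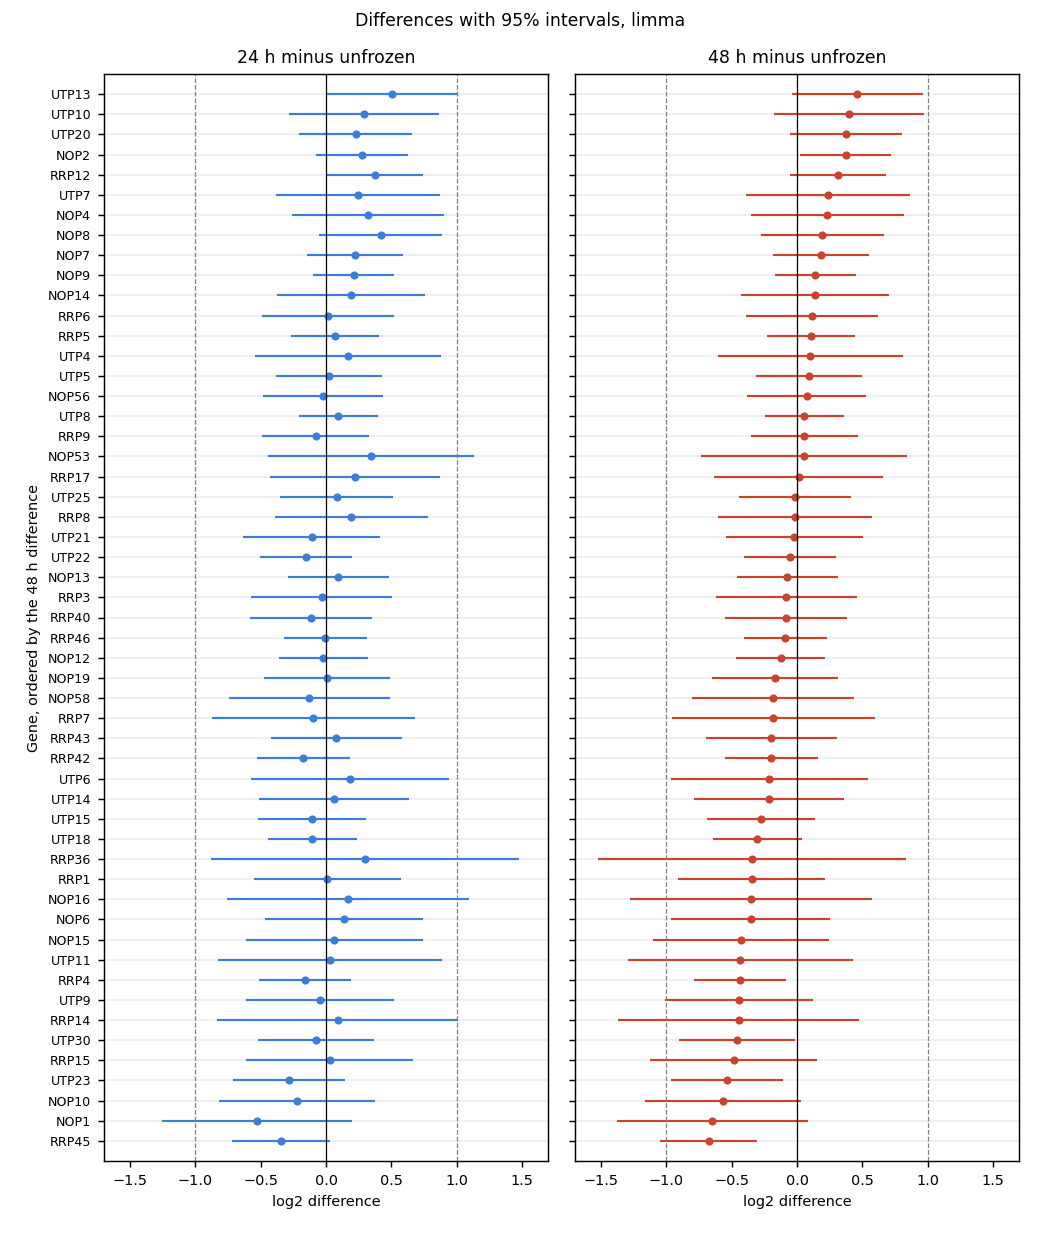
Log2 difference from unfrozen (horizontal axis, points) with its 95% interval (lines) for each of the 53 genes, at 24 h (left) and 48 h (right), ordered by the 48 h difference; dashed lines mark a 2-fold change. Most intervals cross 0 and lie between the dashed lines, and RRP36 has the widest interval of the 53.

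Among snoRNP proteins, the gene with the lowest difference was NOP1 (YDL014W), which encodes fibrillarin, the methyltransferase of box C/D snoRNPs. NOP1 had log2 signals of 12.63, 12.79 and 12.71 on unfrozen replicates 1, 2 and 3, of 12.38, 12.46 and 11.70 at 24 h, and of 12.51, 12.27 and 11.40 at 48 h. All 6 frozen arrays lay under the 3 unfrozen ones, and the frozen replicate 3 arrays were the lowest. Its difference was -0.53 ± 0.33 at 24 h (SE, 3 arrays in each group, limma adjusted p = 0.631) and -0.65 ± 0.33 at 48 h (adjusted p = 0.367). Without replicate 3 in each group the differences were -0.29 and -0.32, and under quantile normalization -0.19 and -0.35. With scaling on every probe set of the array, fission yeast included, the 48 h difference was -0.99 and passed the threshold (limma adjusted p = 0.0495).

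NOP10 (YHR072W-A), a core protein of box H/ACA snoRNPs, which guide pseudouridylation, read 12.88, 12.81 and 12.81 on unfrozen arrays, 12.67, 12.93 and 12.22 at 24 h, and 12.20, 12.58 and 12.00 at 48 h. The 48 h arrays lay under the unfrozen ones, while the 24 h arrays overlapped them. Differences were -0.22 ± 0.27 (limma adjusted p = 0.819) and -0.57 ± 0.27 (adjusted p = 0.325), and quantile normalization turned them to 0.17 and -0.19. With scaling on every probe set the 48 h difference was -0.91 and passed the threshold (limma adjusted p = 0.0498).

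NOP56 and NOP58, the paired core proteins of box C/D snoRNPs, stood at -0.02 and -0.13 at 24 h and at 0.07 and -0.18 at 48 h. Their frozen and unfrozen arrays overlapped. Their 48 h values were 0.01 and -0.44 without 48 h replicate 1. On the frozen replicate 3 arrays the 4 snoRNP genes had median deviations of -0.51 (24 h) and -0.78 (48 h) from the unfrozen mean, against -0.03 to -0.00 on the other 24 h arrays and -0.00 and -0.20 on 48 h replicates 1 and 2. On the same 2 arrays the median of 127 cytosolic ribosomal protein genes was -1.09 and -1.07, and these are also the brightest arrays. The part of brightness in these values was not tested.

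UTP-A, a complex also called t-UTP that binds the precursor early, had 6 members among the 53 genes. Their median difference was 0.06 at 24 h and 0.07 at 48 h (-0.01 without 48 h replicate 1). UTP10 (YJL109C), a very large repeat protein of UTP-A, gave 9.31, 9.34 and 9.38 on unfrozen arrays, 10.01, 9.80 and 9.09 at 24 h, and 10.17, 9.61 and 9.44 at 48 h. The 3 unfrozen arrays lay within 0.1 of each other and under every 48 h array, whereas 24 h replicate 3 fell below them. Differences were 0.29 ± 0.26 (limma adjusted p = 0.769) and 0.40 ± 0.26 (adjusted p = 0.494), and the latter was 0.18 without 48 h replicate 1. UTP4, UTP5, UTP8, UTP9 and UTP15 lay between -0.11 and 0.17 at 24 h. At 48 h UTP9 stood at -0.44 and UTP15 at -0.28, and the others between 0.05 and 0.10. Without 48 h replicate 1, UTP9 was at -0.11, UTP4 at 0.40 and UTP5 at -0.09.

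Within UTP-B, which joins the precursor with the U3 snoRNP, UTP13 (YLR222C) had the highest difference of all 53 genes at both times. UTP13 read 9.29, 9.29 and 8.73 on unfrozen arrays, 9.65, 9.57 and 9.60 at 24 h, and 9.15, 9.61 and 9.93 at 48 h. Every 24 h array lay above the unfrozen ones, and 48 h replicate 1 overlapped them. The difference was 0.50 ± 0.22 at 24 h (limma adjusted p = 0.463) and 0.46 ± 0.22 at 48 h (adjusted p = 0.342). UTP6, UTP18 and UTP21, the other UTP-B genes among the 53, stood at 0.18, -0.11 and -0.11 at 24 h. At 48 h they stood at -0.21, -0.30 and -0.02. With 48 h replicate 1 left out, their 48 h values were 0.23, -0.28 and -0.15.

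In UTP-C, which links the processome to casein kinase 2, UTP22 stood at -0.15 at 24 h and -0.05 at 48 h, and RRP7 at -0.10 and -0.18. RRP36, singled out after its values were seen, had log2 signals of 8.11, 7.78 and 7.48 on unfrozen arrays, 7.77, 8.07 and 8.43 at 24 h, and 5.96, 7.84 and 8.54 at 48 h. The 48 h group thus held both the lowest and the highest of its 9 values, a range of 2.57, wider than that of any other of the 53 genes. Its differences were 0.30 ± 0.53 and -0.35 ± 0.53 (limma adjusted p = 0.888 and 0.786). Without 48 h replicate 1 the 48 h difference of RRP36 turned to 0.39, and that of RRP7 to 0.22.

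A further 15 genes act in the small-subunit processome or later on the small subunit, with median differences of 0.07 at 24 h and -0.02 at 48 h (0.18 without 48 h replicate 1). RRP12 (YPL012W), which takes part in the export of pre-ribosomal particles, read 9.78, 9.80 and 9.77 on unfrozen arrays, 10.42, 10.09 and 9.97 at 24 h, and 10.22, 9.93 and 10.13 at 48 h. All frozen arrays lay above the unfrozen ones, which spanned only 0.03. Its differences were 0.38 ± 0.16 (limma adjusted p = 0.452) and 0.31 ± 0.16 (adjusted p = 0.389), and the 48 h value turned to -0.03 with scaling on every probe set of the array, fission yeast included.

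UTP20 (YBL004W), a large scaffold protein and the longest of the 53 genes, gave 9.39, 9.41 and 9.18 on unfrozen arrays, 9.73, 9.72 and 9.20 at 24 h, and 9.94, 9.69 and 9.47 at 48 h. Only 24 h replicate 3 fell within the unfrozen range. The differences were 0.23 ± 0.19 (limma adjusted p = 0.762) and 0.37 ± 0.19 (adjusted p = 0.377).

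UTP23 (YOR004W), needed for release of the snR30 snoRNA, read 11.04, 10.97 and 10.80 on unfrozen arrays, 10.53, 10.72 and 10.69 at 24 h, and 10.09, 10.73 and 10.38 at 48 h. Every frozen array lay below the unfrozen ones. It differed by -0.29 ± 0.19 (limma adjusted p = 0.676) and -0.54 ± 0.19 (adjusted p = 0.199), and the 24 h value was 0.01 in the values as deposited. At 24 h the other 12 genes of this group lay between -0.08 and 0.24. At 48 h UTP30 and UTP11 were the lowest of those 12, at -0.46 and -0.43, and UTP7 the highest, at 0.24. In between at 48 h were NOP6 at -0.36, UTP14 at -0.22, NOP19 at -0.17, RRP3 at -0.08, UTP25 at -0.02, RRP9 at 0.05, RRP5 at 0.11, and NOP9 and NOP14 at 0.14 each. Many of these 48 h values rest on replicate 1. Without it UTP11 turned to 0.10, UTP14 to 0.10, NOP19 to 0.08, RRP3 to 0.18 and UTP25 to 0.18, while UTP30 was at -0.21, NOP6 at -0.00, RRP9 at 0.19, NOP9 at 0.24, NOP14 at 0.43 and UTP7 at 0.51.

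The exosome, a ring of RNase PH-like proteins with a cap and bound nucleases that trims the precursor of 5.8S rRNA, is represented by 7 genes. Their median difference was -0.11 at 24 h and -0.20 at 48 h, with 2 above 0 at 24 h and 1 at 48 h. RRP45 (YDR280W), a ring subunit, had log2 signals of 10.46, 10.28 and 10.34 on unfrozen arrays, 10.00, 10.16 and 9.88 at 24 h, and 9.48, 9.94 and 9.63 at 48 h. All 6 frozen arrays lay below all 3 unfrozen arrays. Its difference was -0.35 ± 0.17 at 24 h (limma adjusted p = 0.509) and -0.68 ± 0.17 at 48 h (adjusted p = 0.0659), the lowest adjusted p among the 53 genes in either comparison. Over 24 alternatives the 48 h value ran from -1.01 to -0.25 and its adjusted p from 0.0246 to 1, passing 0.05 in 1 of them, the scaling on every probe set of the array, fission yeast included.

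RRP42 (YDL111C), another ring subunit, read 10.15, 10.31 and 10.17 on unfrozen arrays, 10.06, 10.19 and 9.86 at 24 h, and 10.02, 10.18 and 9.84 at 48 h. Its groups overlapped, with replicate 3 lowest at 24 h and at 48 h. Differences were -0.18 ± 0.16 (limma adjusted p = 0.772) and -0.20 ± 0.16 (adjusted p = 0.575), and the 24 h value turned to 0.12 in the values as deposited. The cap subunit RRP4 stood at -0.16 and -0.44, the cap subunit RRP40 at -0.11 and -0.09, the ring subunit RRP43 at 0.08 and -0.20, and the ring subunit RRP46 at -0.01 and -0.09. RRP6, the nuclear exonuclease bound to the ring, stood at 0.01 and 0.11. Without 48 h replicate 1 the 48 h values of RRP43 and RRP6 turned to 0.07 and -0.07, that of RRP40 was -0.28 and that of RRP46 -0.06.

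Of the 53 genes, 14 act in large-subunit assembly. Their median difference was 0.18 at 24 h, with 13 above 0, and -0.05 at 48 h, with 6 above 0. Without 48 h replicate 1 the 48 h median was 0.24, with 9 above 0. NOP2 (YNL061W), a methyltransferase of 25S rRNA, read 9.57, 9.86 and 9.68 on unfrozen arrays, 10.03, 9.94 and 9.96 at 24 h, and 10.29, 9.90 and 10.03 at 48 h. Frozen and unfrozen arrays did not overlap at either time. Its differences were 0.27 ± 0.16 (limma adjusted p = 0.592) and 0.37 ± 0.16 (adjusted p = 0.276).

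NOP8 (YOL144W), an early assembly factor, gave 8.28, 8.16 and 8.19 on unfrozen arrays, 8.50, 8.56 and 8.83 at 24 h, and 7.91, 8.57 and 8.72 at 48 h. Its 24 h arrays lay above the unfrozen ones, and 48 h replicate 1 lay below them. The differences were 0.42 ± 0.21 (limma adjusted p = 0.532) and 0.19 ± 0.21 (adjusted p = 0.688), and the latter was 0.44 without 48 h replicate 1.

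NOP4 (YPL043W), an RNA-binding assembly factor, read 9.38, 9.45 and 8.83 on unfrozen arrays, 9.40, 9.75 and 9.48 at 24 h, and 9.04, 9.32 and 10.01 at 48 h, with overlapping groups. It differed by 0.32 ± 0.26 (limma adjusted p = 0.75) and 0.23 ± 0.26 (adjusted p = 0.694), and by -0.01 at 24 h with scaling on every probe set of the array, fission yeast included. Its 48 h value was 0.44 without 48 h replicate 1.

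NOP53 (YPL146C), which brings the exosome to pre-60S particles, gave 9.14, 8.75 and 8.77 on unfrozen arrays, 9.20, 9.04 and 9.45 at 24 h, and 8.07, 8.96 and 9.78 at 48 h. The 48 h arrays spread on either side of the unfrozen ones. The differences were 0.34 ± 0.35 (limma adjusted p = 0.796) and 0.05 ± 0.35 (adjusted p = 0.961), and the latter was 0.49 without 48 h replicate 1.

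RRP15 (YPR143W), a factor of early pre-60S particles, read 10.15, 9.71 and 9.99 on unfrozen arrays, 9.90, 9.78 and 10.26 at 24 h, and 8.76, 9.72 and 9.93 at 48 h. Only 48 h replicate 1 stood apart, and its difference was 0.03 ± 0.29 at 24 h (limma adjusted p = 0.983) and -0.48 ± 0.29 at 48 h (adjusted p = 0.445). Without that array the 48 h difference was -0.13. The other 9 genes of the group lay between -0.02 and 0.22 at 24 h. At 48 h RRP14 (-0.45), NOP15 (-0.43), NOP16 (-0.36), RRP1 (-0.35), NOP12 (-0.13) and NOP13 (-0.08) stood below unfrozen. The methyltransferase RRP8 (-0.02) and the exonuclease RRP17 (0.01) were near 0, and NOP7 was at 0.18. These 48 h values rest on replicate 1 as well. Without it RRP14 turned to 0.14, NOP16 to 0.24 and RRP8 to 0.25, RRP17 and NOP7 were at 0.40 and 0.32, and NOP15, RRP1, NOP12 and NOP13 lay between -0.03 and -0.01.

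**Figure D2:**
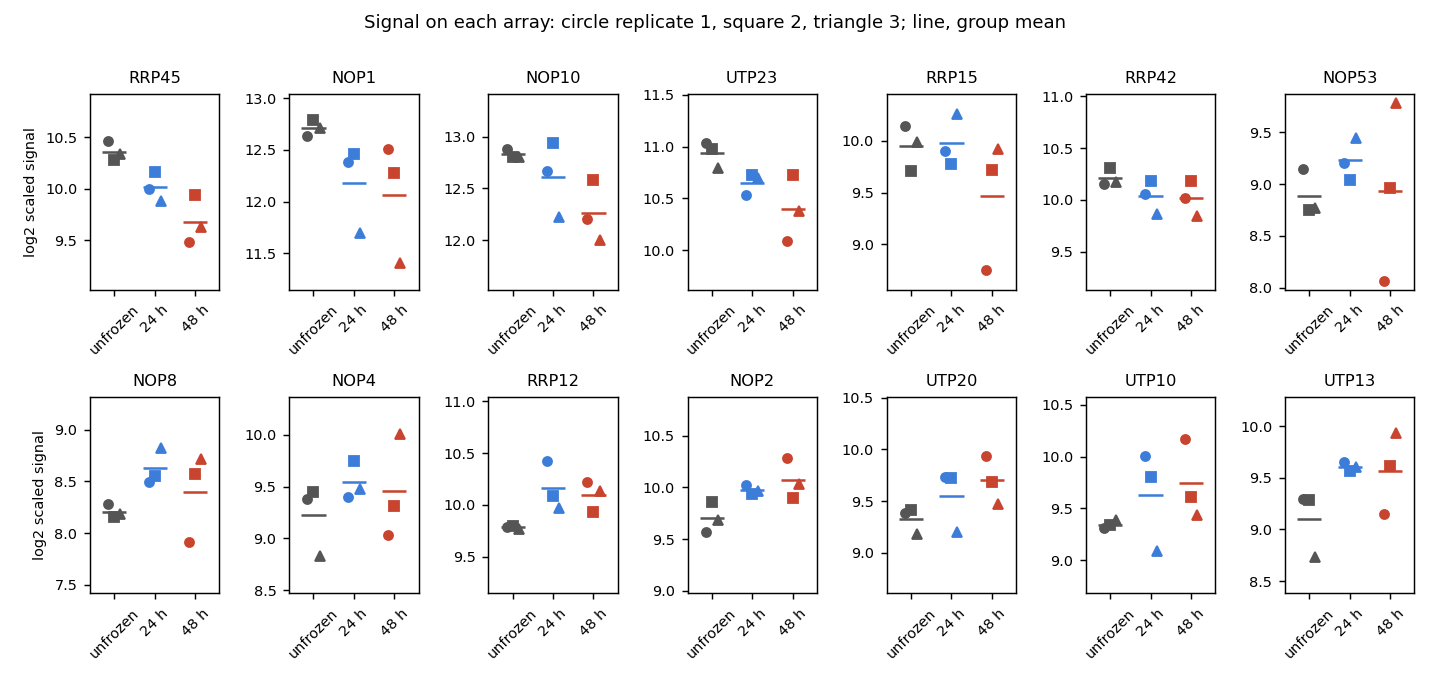
Log2 scaled signal (vertical axis, each panel spanning the same range of log2 units) of the 14 genes with the 5 highest or 5 lowest differences at 24 h or 48 h, by group; circles, squares and triangles are replicates 1, 2 and 3, and lines are group means. RRP45 and UTP23 lie lower on all frozen than on all unfrozen arrays, RRP12 and NOP2 lie higher (UTP23 at 24 h and RRP12 at 48 h change sign under another scaling), and RRP15 and NOP53 have 1 far lower array at 48 h.

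Groups of arrays that did not overlap were about as frequent in these genes as among all genes. At 24 h, 6 genes lay wholly above unfrozen (NOP2, NOP7, NOP8, NOP9, RRP12 and UTP13), 11.3% against a background of 12.2%, and 4 wholly below (NOP1, RRP45, UTP23 and UTP30), 7.55% against 11.6%. At 48 h, 4 lay wholly above (NOP2, RRP12, UTP10 and UTP20), 7.55% against 11.9%. Another 7 lay wholly below (NOP1, NOP10, RRP4, RRP45, UTP18, UTP23 and UTP30), 13.2% against 10.6%.

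Between the 2 freezing times limma called 0 of 53 genes, with 0 at an unadjusted p under 0.05. The background was 0% called (22 of 5396 genes, 0.408%, at an unadjusted p under 0.05). This fit left the arrays unpaired, though 24 h and 48 h arrays of the same replicate number deviated alike (correlations 0.59, 0.39 and 0.79). Arrays of different numbers were not compared, so whether the numbers mark pairs is not known. If they do, the unpaired fit can miss differences between the times. A replicate block, which also pairs the unfrozen arrays, called 0 genes too, with 31 at an unadjusted p under 0.05. The median difference, 48 h minus 24 h, was -0.10, beside 0.01 for all genes, and 42 of the 53 were below 0. This rests on 48 h replicate 1: without it the median was -0.00 and 26 of 53 were above 0. In the values as deposited the median was 0.02. The differences ran from -0.64 for RRP36 to 0.15 for UTP20. Only RRP4 and UTP30 had 48 h arrays wholly below the 24 h ones, 3.77% against a background of 1.30%, and 0 had them wholly above, against 1.59%.

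That array also spread these genes the most, with an SD of 0.62 over the 53 deviations, beside 0.19 to 0.47 on the other frozen arrays. Over all genes the SD was 0.71 on that array and 0.46 to 0.73 on the other frozen arrays, with 48 h replicate 3 the highest. On 48 h replicate 1 the median deviation of the 53 genes from their unfrozen mean was -0.35, while that of all genes was 0.09, and on the other 8 arrays the median of the 53 lay between -0.07 and 0.14. For 30 of the 53 genes (56.6%) it was the lowest of the 9 arrays, against 22.9% of all genes. On this array 23 of the 53 lay more than 0.5 below the unfrozen mean, 43.4% beside 18.2% of all genes. Another 3 lay more than 0.5 above it, beside 26.4% of all genes. The next array by the count of low genes, 48 h replicate 3, had 6, or 11.3% beside 24.2% of all genes. Under quantile normalization the array was lowest for 33 of the genes, against 27.9% of all genes, and with scaling on every probe set for 38, against 32.4%. In the values as deposited it was lowest for 20, against 12.7%. The same array was the highest of the 9 for 8 of the genes (15.1%, against 33.3% of all genes), and 48 h replicate 3 was the highest for 17 (32.1%, against 16.9%).

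**Figure D3:**
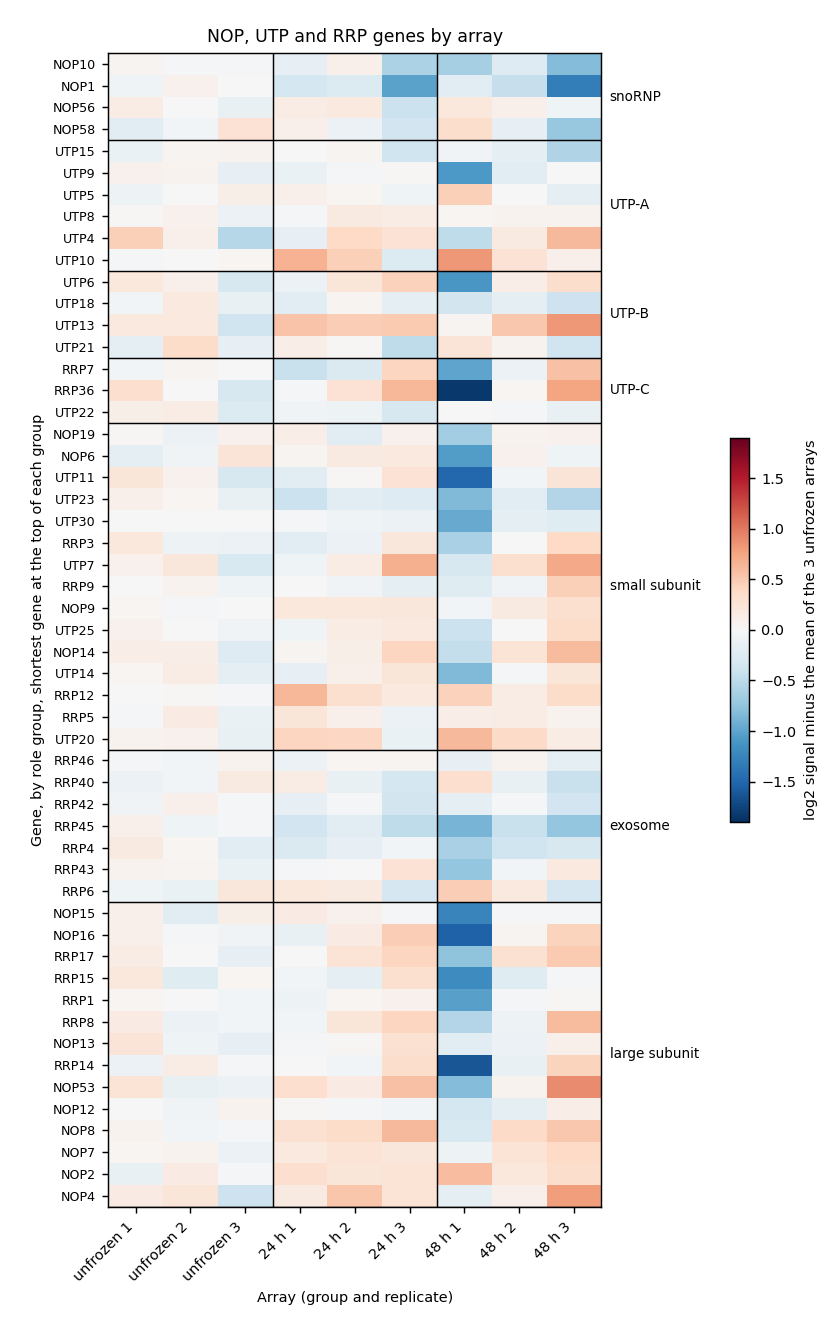
Log2 signal of each of the 53 genes minus its mean over the 3 unfrozen arrays (colour) on each of the 9 arrays (columns), with genes in rows by role group and from the shortest to the longest gene within a group. The column of 48 h replicate 1 holds most of the dark blue cells, among them RRP36 at -1.83, while UTP10 and UTP20 are red there.

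The genes lowest on 48 h replicate 1, singled out after their values were seen, came from several complexes. RRP36 deviated by -1.83 from its unfrozen mean, RRP14 by -1.62, NOP16 by -1.54, UTP11 by -1.50 and NOP15 by -1.25. Other genes were higher there, with UTP10 at 0.83, UTP20 at 0.61 and NOP2 at 0.59. By role the median deviation was -0.99 for UTP-C (3 genes), -0.66 for the large subunit (14), -0.45 for the small subunit (15) and -0.19 for the exosome (7). It was -0.15 for UTP-B (4), -0.02 for UTP-A (6) and -0.00 for snoRNP genes (4). In UTP-C, RRP36 (903 bases) was at -1.83, RRP7 (894 bases) at -0.99 and UTP22 (3714 bases) at 0.00. Role and gene length were not separated.

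On 48 h replicate 1 the deviations varied with gene length. The annotated lengths, all multiples of 3 and so coding lengths, span 177 bases (NOP10) to 7482 bases (UTP20), with a median of 1455. The shortest 18 (up to 984 bases) had a median deviation of -0.91 on this array, the middle 17 of -0.35 and the longest 18 (from 1818 bases) of 0.04. Other genes in the same length ranges had medians of -0.09, 0.14 and 0.23. Across the 53 genes, which share the array and its scaling, Spearman's rank correlation of length with deviation was 0.63, and across 5343 other genes it was 0.19.

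On the remaining frozen arrays the correlation across the 53 genes was 0.43, 0.42 and -0.06 for 24 h replicates 1, 2 and 3, and 0.46 and 0.22 for 48 h replicates 2 and 3. Across the other genes it lay between -0.01 and 0.15. As differences between group means, the longest 18 had medians of 0.18 at 24 h and 0.13 at 48 h, and the shortest 18 of 0.00 and -0.36. Other genes had medians of 0.03 and 0.08 in the long range and of -0.05 and -0.13 in the short range. The shortest 18 had median deviations of -0.91, -0.04 and -0.05 on 48 h replicates 1, 2 and 3. Their -0.36 at 48 h thus rests largely on replicate 1. As measures of RNA state, the median log2 ratio of 3' to 5' probe sets over 7 control genes was 1.34 on 48 h replicate 1 and 0.86 to 1.47 on the other arrays. Its rRNA control median was 9.78, beside 7.64 and 9.80 on 48 h replicates 2 and 3. Within the 48 h group the 3' to 5' value of replicate 1 was the highest, beside 1.13 and 0.93 on replicates 2 and 3. The part of RNA state in the pattern was not tested.

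**Figure D4:**
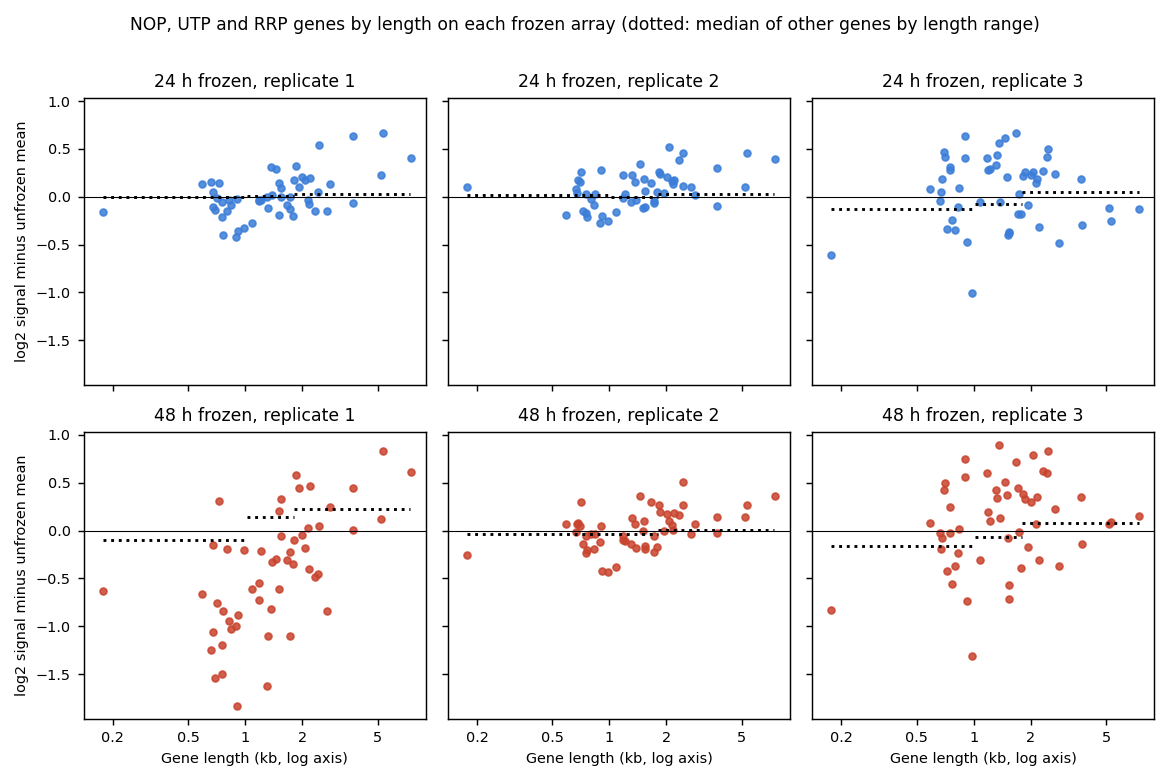
Deviation of each of the 53 genes from its unfrozen mean (vertical axis, log2) against gene length (horizontal axis, kilobases, log axis), 1 panel for each frozen array; dotted lines are medians of all other genes within the length range of each group of 17 or 18 genes. On 48 h replicate 1 the shortest 18 genes have a median of -0.91, and on 48 h replicate 2 of -0.04.

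Other genes of the pathway were not called either, but at the shares over all genes, 1.00% at 24 h and 2.91% at 48 h, lists of these sizes hold few calls or none. The list of partners held 95 genes whose RefSeq symbol has no NOP, UTP or RRP number. Of these, limma called 0 at 24 h and 0 at 48 h (6 and 10 at an unadjusted p under 0.05). Their medians were 0.08 and -0.04, and their median on 48 h replicate 1 was -0.22. HCA4, a helicase of the small-subunit processome, had the smallest p of the list at both times, at 0.45 ± 0.14 (limma adjusted p = 0.233) and 0.50 ± 0.14 (adjusted p = 0.108). The helicase DHR2 stood at 0.46 ± 0.17 at 24 h (adjusted p = 0.318), and the GTPase NOG2 of late large-subunit assembly at -0.51 ± 0.15 at 48 h (adjusted p = 0.109).

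RNA polymerase I genes and factors had 0 of 19 called at each time (0 and 1 at an unadjusted p under 0.05) and medians of -0.13 and -0.26. RRN5, of the upstream activation factor, stood at -0.74 ± 0.33 at 24 h (limma adjusted p = 0.475). RRN10 of that factor stood at -0.39 ± 0.20 and -0.56 ± 0.20 (adjusted p = 0.538 and 0.199), and its partner UAF30 at -0.45 ± 0.20 at 48 h (adjusted p = 0.311). For RNA polymerase III, 0 of 19 were called at each time (1 and 1 at an unadjusted p under 0.05) and the medians were 0.03 and -0.07. Its second-largest subunit RET1 stood at 0.44 ± 0.15 and 0.46 ± 0.15 (adjusted p = 0.293 and 0.16), RPC34 at 0.18 ± 0.20 at 24 h and RPC31 at -0.36 ± 0.18 at 48 h.

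Regulators of ribosome genes had 0 of 12 called at each time (2 and 2 at an unadjusted p under 0.05) and medians of -0.33 and -0.16. RAP1, an activator bound at ribosomal protein promoters, stood at -0.62 ± 0.23 and -0.83 ± 0.23 (limma adjusted p = 0.32 and 0.0924). FHL1, which acts with it, stood at -0.72 ± 0.21 at 48 h (adjusted p = 0.119), and TOD6, a repressor of ribosome biogenesis genes, at 0.38 ± 0.17 at 24 h (adjusted p = 0.463). Of 127 cytosolic ribosomal protein genes, 0 were called at each time (0 and 3 at an unadjusted p under 0.05), with medians of -0.40 and -0.52. On the frozen arrays that gave ribosomal protein genes their lowest medians, the frozen replicate 3 arrays, the median of the 53 NOP, UTP and RRP genes was 0.14 and 0.10.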

How the data were processed

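The authors deposited an intensity per probe set for 9 single-colour Affymetrix Yeast Genome 2.0 arrays on a linear scale. Per the submitters' processing notes GCOS was used, and per the labels GeneSpring 7.3.1 scaled each chip and divided by unfrozen samples, steps not seen in the deposited values. Log2 intensities were shifted so that the 5498 budding yeast probe sets had 1 median on all arrays. Genes were tested if their mean exceeded percentile 95 of the 1746 fission yeast probe sets. The brightest probe set stood for a gene. Symbols and lengths came from RefSeq assembly R64, and no result given here uses coordinates. Group means over all 9 arrays were compared with limma 3.58.1 in R 4.3.3 (trended empirical Bayes, two-sided, Benjamini-Hochberg over 5396 genes, adjusted p under 0.05), a procedure tested on simulated data. Differences are frozen minus unfrozen.

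The genes, role groups and lists were chosen with earlier results of these data known. All 53 genes are accounted for, and those with the 5 highest and 5 lowest differences at 24 h and 48 h are given on every array. In other lists, apart from the cytosolic ribosomal protein genes, the 2 genes with the smallest p per comparison are named. No genes were called in any of the lists. Promoter sequences were not used here. Alternatives were other scalings, filters, models and left-out arrays. Replicate numbers paired the 24 h with the 48 h arrays, judged from the data alone (correlations of deviations from the group means 0.59, 0.39 and 0.79), but not the unfrozen arrays (-0.38, 0.25 and -0.12 with 24 h). At most 0.00915% of values were identical between 2 arrays. The number of arrays limits the precision.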

Additional observations from a re-analysis of the deposited data

Results flagged for a closer look

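The ribosomal RNA control probe sets, which no comparison of the NOP, UTP and RRP genes uses, gave more signal on frozen arrays. The lowest median among the 6 frozen arrays was a log2 signal of 7.64 (48 h replicate 2), and the highest unfrozen median was 7.02 (replicate 3). With groups of 3 arrays, single outlying arrays were not tested.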

How the results depend on the processing

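Of 24 alternatives, the count of NOP, UTP and RRP genes called stayed at 0 in each comparison except at 48 h with scaling on every probe set of the array, fission yeast included, where it was 3: RRP45 (-1.01), NOP1 (-0.99) and NOP10 (-0.91). All genes had a median of -0.37 there. With that scaling the median of the 53 was -0.26 at 24 h and -0.42 at 48 h, and 265 genes were called at 48 h. The split of calls moved from 43 higher and 11 lower to 19 and 45 at 24 h, and from 113 and 44 to 57 and 208 at 48 h. As deposited, with all genes at medians of 0.28 and 0.40, the medians of the 53 were 0.36 and 0.34, and 34 and 54 genes were called. With rRNA signal as a covariate the median at 24 h was 0.15 and limma called 0 genes at either time (139 and 252 at an unadjusted p under 0.05). Calls among all genes were 118 at 24 h and 84 at 48 h with only the groups compared, and 139 and 237 with replicate 3 as a batch. With the replicate block they were 113 and 211, and the block changed no call among the 53. Of the 53 genes, 7 turned sign at 24 h and 2 at 48 h under quantile normalization, 18 and 22 as deposited, 29 and 16 with scaling on every probe set, and 11 and 5 with the rRNA covariate, and 14 turned at 48 h without 48 h replicate 1. Among the 5 highest and 5 lowest differences of each comparison, those that turned at 24 h were NOP10 (0.17 under quantile normalization, 0.073 as deposited, 0.21 with the rRNA covariate), UTP23 (0.0097) and RRP42 (0.12) as deposited, and NOP4 (-0.0058) with scaling on every probe set. At 48 h, among the 5 highest and 5 lowest, RRP12 turned to -0.026 under the last scaling. Leaving out an array or a replicate number gave 0 to 126 genes called at 24 h and 0 to 232 at 48 h, both 0 by limma without replicate 2 in each group (211 and 403 at an unadjusted p under 0.05). The median of the 53 ran from -0.01 to 0.08 at 24 h, from -0.24 to 0.09 at 48 h and from -0.26 to -0.00 between the times. Its 48 h value was 0.08 without 48 h replicate 1 and 0.09 without replicate 1 in each group. The cause of these changes was not tested.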

Other observations

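Partners of the snoRNP proteins, singled out after their values were seen, were also low on the frozen replicate 3 arrays. SNU13, which binds box C/D snoRNAs and the U4 RNA, read 12.42, 12.60 and 12.37 on unfrozen arrays, 12.49, 12.73 and 11.45 at 24 h, and 12.61, 12.39 and 11.44 at 48 h. GAR1, a box H/ACA protein, read 12.48, 12.56 and 12.41, then 12.29, 12.40 and 11.82, then 12.42, 12.22 and 11.71 on these arrays. CBF5, the pseudouridine synthase of the box H/ACA particle, read 11.13, 11.76 and 11.82 unfrozen, 11.74, 11.25 and 10.70 at 24 h, and 11.80, 11.34 and 10.75 at 48 h. For each of the 3 genes the lowest array of each frozen group was replicate 3. None of the 3 was called by limma at 24 h or 48 h (adjusted p from 0.541 to 0.871). Low values there were not particular to snoRNP genes. RPA135 of RNA polymerase I read 11.33, 11.47 and 11.44 unfrozen, and 10.68 (24 h) and 10.56 (48 h) on the frozen replicate 3 arrays. Of all genes, 21.5% and 24.2% lay more than 0.5 below the unfrozen mean on these arrays, and 12.1% and 16.0% more than 0.5 above it. These are also the brightest arrays.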
